A study of Homo sapiens with 3 samples.

Results

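To examine PHF13 away from gene starts, from EZH2 and from the AP-1 sequence, a class of PHF13 peaks was taken from the deposited peak list of PANC-1 cells, a long-used line grown from a human ductal carcinoma of the pancreas. A member is a PHF13 peak that shares no base with any EZH2 peak, whose summit, the position of highest coverage, lies over 5000 bp from every annotated transcription start site (TSS) and inside an annotated transcript, and which has no exact AP-1 site (TGASTCA, S being C or G, on either strand) in the 200 bp centred on the summit. The members were therefore chosen by measured values, the positions of the peaks in both lists, together with annotation and sequence, and none of these 4 criteria is a result. Of 19039 PHF13 peaks, 16809 shared no base with EZH2, 10304 of these were over 5000 bp from a TSS, and 5925 of those lay in a transcript span. An AP-1 site was present at 843 of them, and the remaining 5082 peaks (26.7% of the PHF13 list) are the members. The series holds chromatin immunoprecipitation with sequencing (ChIP-seq) of 1 PHF13 library, 1 EZH2 library and 1 input library, all from cells given as wild type with no treatment listed and fixed with EGS, paraformaldehyde and formaldehyde in turn. According to the methods, the PHF13 antibody is a newly made rabbit polyclonal. Since there is 1 library per antibody, no comparison has a replicate check and no test was made. Intervals in the text are 95% intervals that cover counting error only and describe these libraries.

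PHF13 is a PHD-finger protein that binds histone H3 trimethylated or dimethylated at lysine 4, marks of active promoters and enhancers, and EZH2 is the methyltransferase of Polycomb repressive complex 2, which places the repressive mark H3K27me3. Introns of long genes hold many enhancers, short stretches of DNA at which several sequence-specific factors bind close to each other. AP-1, a dimer of FOS and JUN proteins, is among the most frequent of these factors in cultured carcinoma cells, and TEAD, RUNX and FOX proteins commonly occupy the same enhancers. Removal of every summit with an exact AP-1 site leaves the question of which sequences lie beneath the other summits inside genes.

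The DNA beneath 6 of the strongest members is given first, as examples of the sequences found. The choice favours windows with a motif: of all members with a −log10 q of at least 10, 46.3% held any of the 4 motifs marked below. Some windows hold a pair of different motifs side by side or apart, and some an AP-1 site with its centre base changed. The last holds none of the 4 motifs marked below. They were taken among the members with single-copy sequence (a median 24-mer, over the 100 bp at the summit, that occurs once in the genome) and the highest −log10 q. Each is the 200 bp centred on the summit, from the plus strand of GRCh37 (hg19), 5′ to 3′. Capitals mark exact matches on either strand to 4 motifs: TEAD (GGAATGT), RUNX (TGTGGTT), FOX (TGTTTAC) and near-AP-1 (TGAATCA). Near-AP-1 is the name used here for the AP-1 site with A or T in place of its centre base. Other words that differ from the AP-1 site by 1 base are not marked. Of these, the MERTK window holds TGAGTAA and TCAGTCA, and the THSD7A window holds GGAGTCA.
THSD7A, chr7:11825897-11826096: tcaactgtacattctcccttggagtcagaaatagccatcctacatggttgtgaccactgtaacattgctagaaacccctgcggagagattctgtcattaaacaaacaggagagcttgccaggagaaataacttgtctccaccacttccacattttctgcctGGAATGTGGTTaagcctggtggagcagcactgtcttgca
LINC00578, chr3:177196343-177196542: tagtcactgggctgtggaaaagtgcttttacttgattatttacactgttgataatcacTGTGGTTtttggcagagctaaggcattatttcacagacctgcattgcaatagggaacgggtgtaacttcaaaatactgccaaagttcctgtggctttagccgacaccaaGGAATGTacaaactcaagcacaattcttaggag
MERTK, chr2:112732760-112732959: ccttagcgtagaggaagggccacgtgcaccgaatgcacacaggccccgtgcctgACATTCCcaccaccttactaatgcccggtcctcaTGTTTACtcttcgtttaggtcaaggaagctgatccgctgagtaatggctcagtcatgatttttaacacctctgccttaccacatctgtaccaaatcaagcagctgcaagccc
NR5A2, chr1:200045462-200045661: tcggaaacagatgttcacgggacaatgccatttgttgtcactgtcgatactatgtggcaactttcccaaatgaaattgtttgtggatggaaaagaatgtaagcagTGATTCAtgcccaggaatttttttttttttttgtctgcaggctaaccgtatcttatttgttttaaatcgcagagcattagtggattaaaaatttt
CMSS1, chr3:99766333-99766532: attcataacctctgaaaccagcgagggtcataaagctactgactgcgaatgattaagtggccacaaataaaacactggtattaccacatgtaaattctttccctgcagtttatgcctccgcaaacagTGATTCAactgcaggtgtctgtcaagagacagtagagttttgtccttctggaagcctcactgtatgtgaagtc
SBF2, chr11:9927655-9927854: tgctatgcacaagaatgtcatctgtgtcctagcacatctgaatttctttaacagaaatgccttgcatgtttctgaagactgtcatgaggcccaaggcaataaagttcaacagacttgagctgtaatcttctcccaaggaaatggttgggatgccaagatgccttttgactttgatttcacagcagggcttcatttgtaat

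The THSD7A summit had a fold enrichment of 8.17 over the local background and a −log10 q of 38.7, from 72 fragments. It lies in intron 1 of 27 of THSD7A, a gene for a thrombospondin-type protein of the cell surface, and 34923 bp from the nearest TSS. In this window the TEAD and RUNX words overlap, centred 64 and 68 bp from the summit. The summit in LINC00578, a long non-coding RNA gene, had a fold of 7.79 and a −log10 q of 34.2, with a RUNX word 39 bp before and a TEAD word 70 bp after it. In intron 6 of 18 of MERTK, a receptor tyrosine kinase gene, a FOX word lay 9 bp and a TEAD word 43 bp before a summit with a fold of 7.66 and a −log10 q of 25.3.

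A near-AP-1 word lay 8 bp after the summit in intron 5 of 7 of NR5A2, which encodes a nuclear receptor of the exocrine pancreas. This peak reached a fold of 7.96 and a −log10 q of 27.2 with 51 fragments. The summit in intron 1 of 9 of CMSS1, where the gene FILIP1L overlaps, had the same word 30 bp away, with a fold of 8.15 and a −log10 q of 31.9. The member with the highest −log10 q, 42.6, was a 736 bp peak in intron 16 of 39 of SBF2, a gene of the myotubularin family, and held none of the 4 motifs. Its 87 fragments stood over a background of 11 fragments, so its fold of 7.33 was lower than that of the 3 single-copy members with the highest fold, in ADAMTS18 (8.38, in a coding exon), THSD7A and CMSS1. The other strong single-copy members lay in ZCCHC7, TPRG1 and IGF2BP3. The ZCCHC7 peak had a −log10 q of 32.6 and a FOX word 24 bp from the summit. In TPRG1 the summit lay in an exon outside the coding sequence (28.1, with a pair of RUNX words). The IGF2BP3 peak, in intron 10 of 14, had 27.6 and none of the 4 motifs. The ADAMTS18 window also held none of the 4. TGAGTAA, the AP-1 site with 1 base changed, lay in the ZCCHC7 and IGF2BP3 windows.

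Such peaks were the exception, and most members were weak. The median fold enrichment of members was 3.34 (95% interval 3.30 to 3.37) and the median −log10 q 3.09 (3.01 to 3.16), with a range from 1.31 to 42.6. The median member was 177 bp wide and held 19 fragments at its summit over a background of 4.69. The 844 members with a −log10 q of at least 5 made up 16.6% (15.6 to 17.7), compared with 30.4% of all PHF13 peaks. Only 147 members (2.89%) reached 10 and 23 reached 20. Among the PHF13-only distal genic peaks that do hold AP-1, 54.6% reached a −log10 q of 5, so that the difference of members from this set was −38.0 percentage points (−41.4 to −34.4), and their median fold was 3.90. Of PHF13-only distal peaks without AP-1 between genes, 20.5% reached 5, and the difference of members from them was −3.86 percentage points (−5.50 to −2.23). EZH2-only distal genic peaks of at most 1000 bp reached 5 in 16.7% of cases, and the interval of the difference from members ran from −1.58 to 1.31 percentage points.

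**Figure D1:**
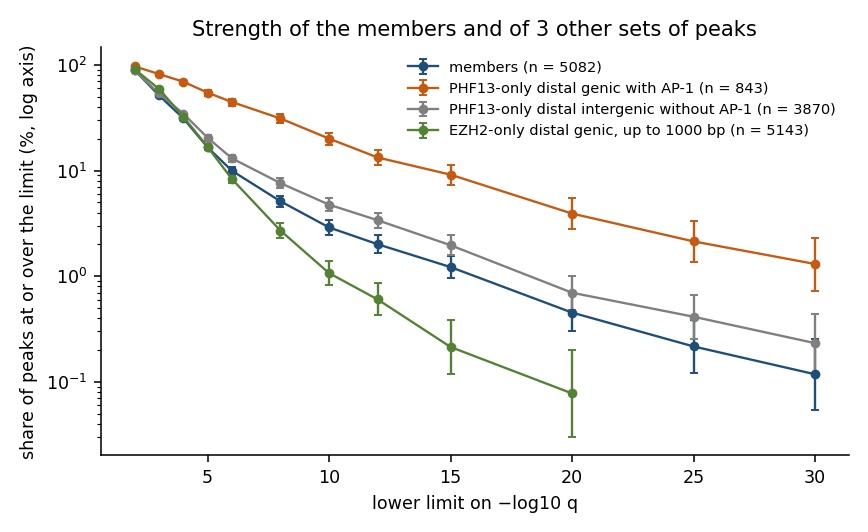
Share of peaks (%, log axis) at or over each limit on −log10 q, for the members and 3 other sets; bars are 95% Wilson intervals for counting error. The members fall below the AP-1 set at every limit, with 16.6% against 54.6% at 5, and below the intergenic set without AP-1 at 5 (20.5%) and at 10 (2.89% against 4.75%).

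At the limits of the rule, peaks just inside and just outside are described with no test. The 331 members with a summit 5000 to 6000 bp from a TSS had a median fold of 3.37, and the 364 peaks left out at 4000 to 5000 bp had 3.26. Peaks that met every other criterion but shared a base with EZH2 numbered 300, with a median fold of 4.03, a median −log10 q of 7.85 and single-copy sequence in 15% of cases. The 123 members with an EZH2 peak within 1000 bp had a median fold of 3.18 and were single-copy in 47.2%. The 259 members with an AP-1 site inside 400 bp but outside 200 bp had a median fold of 3.30. The closest member was 5003 bp from a TSS, and the smallest gap to an EZH2 peak was 8 bp.

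Reads from repeated sequence cannot be placed with certainty, and Bowtie 2 under its default settings reports 1 location for such a read. Single-copy sequence lay at 70.0% of member summits (68.7 to 71.2). This was less than at the AP-1 set (93.8%) and at a grid of distal genic positions spaced 50 kb apart (82.0% of 23368), and more than at the intergenic peaks without AP-1 (62.3%). A median 24-mer with at least 1000 copies was found at 415 members, 8.17%. The share with a −log10 q of at least 5 was 16.4% (15.3 to 17.7) in single-copy members, 20.05% (17.4 to 22.9) in those with over 1 and under 100 copies, 11.3% (8.17 to 15.3) from 100 to under 1000 copies and 15.2% (12.05 to 19.0) from 1000 copies. By strength, single-copy sequence lay at 86.4% of the members with a −log10 q of 10 or more, 65.7% of those at 5 to 10, and 69.2% to 70.9% in the classes below. The following 24-base word is shown because it recurs at many member summits and contains the RUNX letters, in capitals. It comes from L1 elements, a family of dispersed repeats.
L1 word: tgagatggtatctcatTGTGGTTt
The L1 word was present at 37 member summits (0.728%) and in 0.0492% of windows 1000 bp away, and has 16448 exact copies in the genome. A mitochondrial 24-mer was found at 0 member summits (Wilson interval up to 0.0755%).

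Within genes, summits lay in exons in 5.02% of members (4.45 to 5.65), where 4.11% of all distal genic bases are exonic. Of the EZH2-only distal genic peaks 5.46% lay in exons and 1.94% in coding sequence, and of the AP-1 set 2.97% and 0.593%. Coding sequence held 93 members (1.83%, 1.5 to 2.24) against 0.998% of bases. One example is the peak of ADAMTS18, a secreted metalloprotease gene, already described. Of the 3049 summits in introns of canonical transcripts, 26.1% (24.5 to 27.7) were in the first intron, which makes up 23% of such intron sequence. EZH2-only distal genic peaks had 22.7% in first introns, and members exceeded them by 3.41 percentage points (1.2 to 5.61). A protein-coding gene covered 3647 members (71.8%), beside 71.7% of distal genic bases, and a lncRNA gene alone covered 1342 (26.4%). With the canonical transcript cut into 5 equal parts from 5′ to 3′, members numbered 597, 762, 662, 679 and 606, and the part after the first held the most, 23.05% (21.6 to 24.5), and 21.6% of distal bases.

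The median member was 16317 bp from a TSS (15782 to 16880), whereas the median distal genic base is 18490 bp away. The AP-1 set (14373 bp, 13479 to 15565) and the EZH2-only distal genic peaks (15309 bp, 14863 to 15758) were nearer. The intergenic peaks without AP-1 were farther, at 24667 bp. Members were most frequent at 10 to 20 kb, with 30.9% (29.7 to 32.2) of members and 27.5% of bases. Beyond 50 kb they were fewer than the sequence available: 9.80% against 12.6% at 50 to 100 kb and 2.87% (2.45 to 3.37) against 4.58% at 100 to 200 kb. The strongest members were closest, with a median of 13086 bp for a −log10 q of 10 or more and 17524.5 bp for 2 to 3. The order over classes was not steady, with 15727.5 bp under 2, 16310 bp at 3 to 5 and 15115 bp at 5 to 10. The strongest class holds 147 members.

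**Figure D2:**
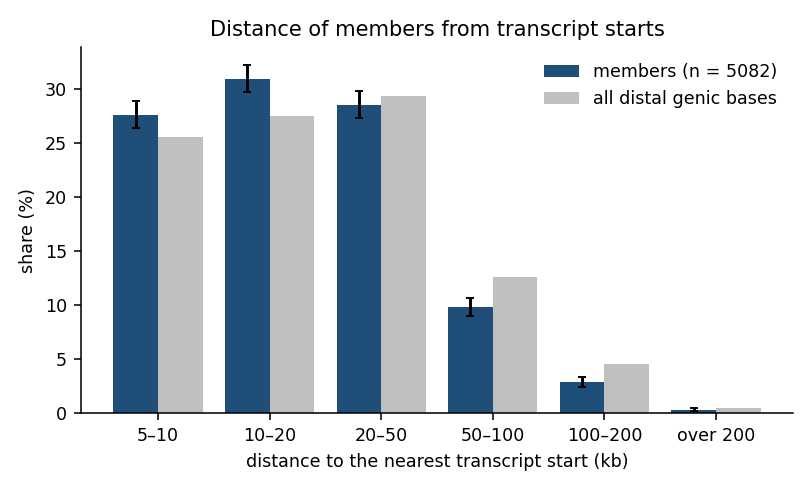
Share (%) of the 5082 members, with 95% Wilson intervals, and of all distal genic bases, by distance to the nearest transcript start in kb. Members exceed the bases at 5 to 20 kb and fall short of them beyond 50 kb.

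The DNA at the member summit was richer in G and C than its surroundings. Over 500 bp centred on it, median GC was 44.4% (44.2 to 44.6), compared with 39.4% over all distal genic windows of that size. In windows of 100 bp, the mean was 47.0% at the summit and 40.9% at 1000 bp on both sides. Over 500 bp, the EZH2-only distal genic peaks were higher, with a median of 47% (46.8 to 47.4), and the AP-1 set was at 44% (43.4 to 44.6). The rise in the 100-bp mean was not particular to members. The EZH2-only set had 49.3% at the summit and 43.5% at 1000 bp, and the AP-1 set 46.6% and 42.1% to 42.3%. The intergenic set without AP-1 had 46.6% and 40.7% to 40.9%. The ratio of observed to expected CpG was 0.6 or higher, a limit often used for CpG islands, at 96 members (1.89%), and the median ratio was 0.186, beside 0.174 of all distal genic windows.

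To describe the sequences beneath members, 27 short motifs were sought on both strands in the 200 bp around each summit and in equal windows 1000 bp to each side. The share of all 5865728 distal genic windows of 200 bp that hold the motif is given as a census. For 11 motifs the interval at the summit lay above that of the flanks, for 1 it lay below, and for 15 the intervals overlapped. The most frequent was the E-box CACCTG, the word bound by SNAI and ZEB repressors, at 20.1% of summits (19.1 to 21.3) and 14.1% of flanks, with a census of 13.8%. The E-box CAGCTG was at 10.6% of summits (9.79 to 11.5), 6.62% of flanks and 6.53% of all windows. GC boxes of SP and KLF factors (GGGCGGG) were at 1.44% of summits (1.14 to 1.80) and 0.767% of flanks, with a census of 0.665%. The RUNX word was at 6.02% of summits (5.4 to 6.71), 3.45% of flanks and 3.94% of all windows.

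Near-AP-1 was at 4.43% of summits (3.90 to 5.03) and 3.08% of flanks, with a census of 3.41%. TEAD was at 4.64% (4.10 to 5.26) and 3.14%, with a census of 2.92%, and FOX at 4.33% (3.8 to 4.92) and 2.99%, with a census of 3.23%. The other 4 motifs above their flanks were the NFI word TTGGCA (12.3% and 9.99%, census 10.2%), the KLF word CCACACCC (2.62% and 1.58%, census 1.48%), the SOX word ACAATGG (3.70% and 2.78%, census 3.08%) and the NRF2 core TGACNNNGC (7.20% and 5.73%, census 5.64%). The motif that was lower at the summit was the IRF word, at 2.56% (2.16 to 3.03) against 3.72% of flanks. The GATA-factor word AGATAAG had 2.30% at summits (1.92 to 2.75) and 2.60% at flanks, and the CTCF core 0.669% (0.479 to 0.933) and 0.502%, with intervals that overlapped. The intervals also overlapped for the words of CRE (TGACGTCA), ETS (CGGAAGT), C/EBP (TTGCNNAA), STAT (TTCCNGGAA), SMAD (GTCTAGAC), TCF/LEF (CTTTGAT), POU (ATGCAAAT), the glucocorticoid receptor (ACANNNTGT), HNF4 (CAAAGTCCA) and YY1 (AAGATGGC), and for NF-kappaB, the p53 family and SRF. A motif match describes letters in a window and not a bound site.

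These motifs differed by copy number. In single-copy members the CACCTG word was at 16.7% of summits (15.5 to 18.0) and 15.0% of flanks, whereas in multi-copy members it was at 28.2% (26 to 30.5) and 12.3%. TEAD, FOX and near-AP-1 showed the opposite: TEAD was at 5.65% of single-copy summits, 1.77 times its flanks, and at 2.30% of multi-copy summits, 0.761 times its flanks. FOX had ratios of 1.80 and 0.615, and near-AP-1 of 1.59 and 0.862. RUNX had a ratio of 1.74 in single-copy members and 1.76 in multi-copy members, and the 37 summits with the L1 word shown above all hold its letters. Without them RUNX was at 5.33% of summits (4.75 to 5.99), a ratio of 1.54.

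Near-AP-1, TEAD, RUNX and FOX, chosen after their values were seen, were then followed over classes of peak strength. In members with a −log10 q under 2, near-AP-1 was at 2.14% of summits and 2.50% of flanks, TEAD at 2.86% and 3.48%, FOX at 2.86% and 2.68%, and RUNX at 4.64% (3.19 to 6.72) and 3.13% (2.26 to 4.32), a ratio of 1.49, with intervals that overlapped for each motif. In the 697 members with a −log10 q of 5 to 10, near-AP-1 was at 7.17% (5.48 to 9.33), TEAD at 6.74% (5.11 to 8.85), RUNX at 7.60% (5.86 to 9.81) and FOX at 6.46% (4.86 to 8.53). In the 147 members at 10 or more, near-AP-1 was at 12.2% (7.89 to 18.5), TEAD at 17% (11.8 to 23.9), RUNX at 16.3% (11.2 to 23.1) and FOX at 17.7% (12.4 to 24.7). The flanks of these members stayed between 2.72% and 3.74% for the 4 motifs. The NFI word TTGGCA also rose over the 5 classes, with 10.7%, 11.8%, 12.02%, 13.8% and 21.1% (15.3 to 28.4) of summits, and 11.2% of flanks in the strongest class, so the rise was not limited to the 4 motifs. CACCTG did not follow this order, with 12.9% (8.43 to 19.3) at summits and 17.3% at flanks in the strongest class, and CAGCTG had 15.0% (10.1 to 21.6) and 6.80%.

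**Figure D3:**
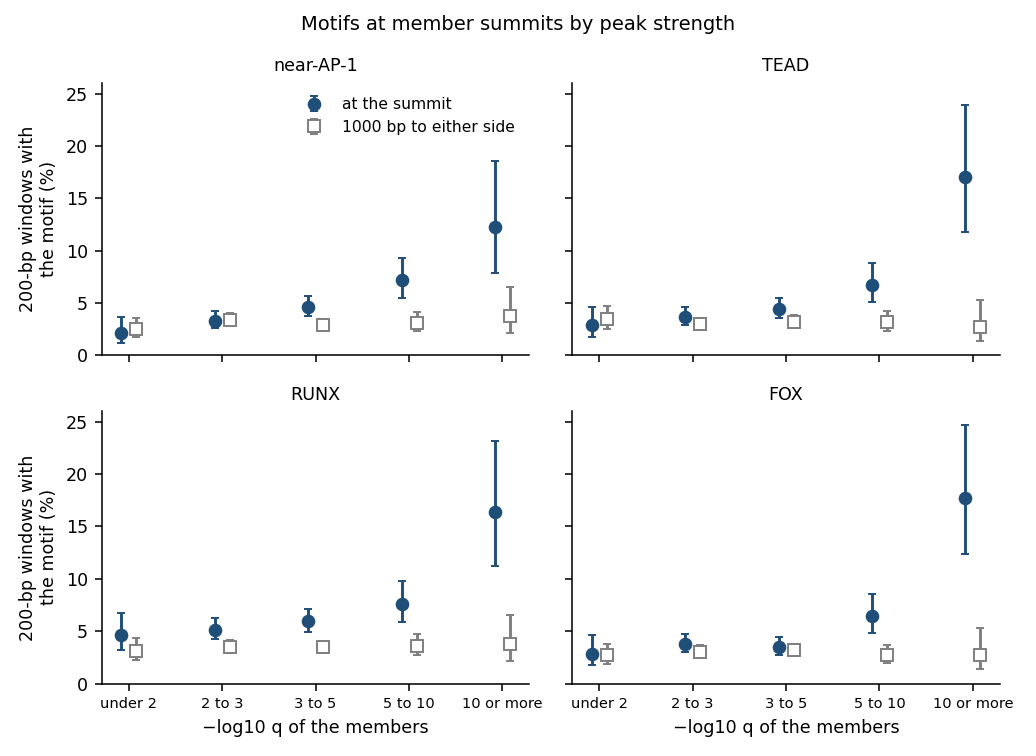
Share (%) of 200-bp windows with the near-AP-1, TEAD, RUNX or FOX motif in members of 5 classes of −log10 q, at the summit (filled) and 1000 bp to either side (open), with 95% Wilson intervals. The summit share is highest in the class of 10 or more for each of the 4 motifs, up to 17.7% for FOX, while the flank shares stay under 4%.

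At least 1 of the 4 motifs was present at 880 member summits (17.3%, 16.3 to 18.4) and in 12.1% of flanks. Among members with a −log10 q of at least 5 the share was 27.8% (24.9 to 31.0), and among those of at least 10 it was 46.3% (38.4 to 54.3), with 12.2% of flanks. In that last class, 45 members held 1 of the motifs, 21 held 2, 2 held 3 and 79 held none. Conversely, single-copy members with any of the 4 reached a −log10 q of at least 5 in 29.0% of 701 cases (25.7 to 32.4), and those with none in 13.4% of 2856 (12.2 to 14.7).

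In the stronger members the motifs were most frequent at the summit itself. In 100-bp windows, near-AP-1 was present in 6.28% of windows at the summit of members with a −log10 q of at least 5, TEAD in 5.45%, RUNX in 6.40% and FOX in 5.45%. In the weaker members the same windows held 2.15%, 1.96%, 3.02% and 2.17%.

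**Figure D4:**
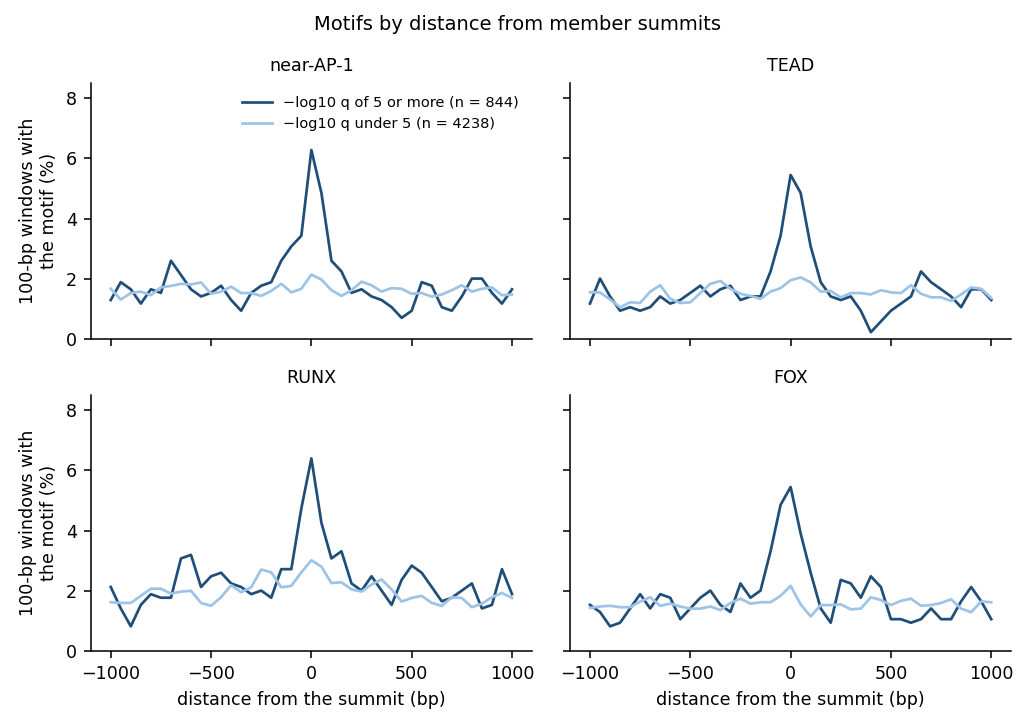
Share (%) of 100-bp windows with each of the 4 motifs by distance from the summit in bp, for the 844 members with a −log10 q of 5 or more and the 4238 weaker ones. In the stronger members each motif is highest at the summit, at 5.45% to 6.40%. In the weaker ones the summit values are 1.96% to 3.02%, and those at 1000 bp on both sides are 1.37% to 1.77%. Of these, RUNX is at 3.02% at the summit and at 1.63% and 1.77% at 1000 bp. The summit value of TEAD in the weaker members is below its value at 50 bp (2.05%).

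Since the rule removes only exact AP-1 sites, all 19 words that differ from TGASTCA by 1 base were then counted, a description chosen after the motif values were known. In members with a −log10 q of at least 5, 5 of the 19 were above their flanks beyond counting error and none was below. The most frequent of these was TGACTAA, at 8.77% of summits (7.04 to 10.9) and 2.61% of flanks. Near-AP-1 followed with 8.06% (6.41 to 10.1) and 3.20%, then TGAGTAA with 6.28% (4.83 to 8.12) and 2.61%, TGACACA with 6.16% (4.73 to 7.99) and 3.32%, and TGACGCA with 1.3% (0.729 to 2.32) and 0.118%. For the other variants the intervals at summits and flanks overlapped, as for AGAGTCA at 4.15% and 2.49%, TAACTCA at 1.78% and 3.14%, and TGAGCCA at 8.53% and 10.4%. In members under 5, TGACTAA was at 3.33% of summits (2.83 to 3.91) and 2.06% of flanks, and TGACACA at 3.35% and 3.28%.

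Words were also ranked without any prior motif. Among the 844 members with a −log10 q of at least 5, the 12 words of 7 bases with the highest ratio of summits to flanks were chosen on the 468 members of odd-numbered chromosomes and counted on the 376 members of even-numbered chromosomes and X. All 12 had a ratio above 1 on the second set, and 6 had an interval above that of the flanks. These 6 included TGACTAA, at 9.31% of the second set (6.77 to 12.7) and 2.93% of its flanks, the FOX word TGTTTAC, at 8.78% (6.32 to 12.1) and 3.19%, and TTGTGGT, which shares 6 letters with the RUNX word, at 6.65% (4.54 to 9.63) and 2.93%. TTGTGGT also lies whole within the L1 word shown above, and the ranking was not limited to single-copy members. The other 3 were AGTCTGC (5.32% and 1.60%), TGTTGAC (3.99% and 0.931%) and GTTGACT (3.72% and 0.798%), of which the last pair share 6 letters. The same ranking over all members returned words with CG in them at low counts, and the 15 leading ones were on 23 or fewer summits each of the second set.

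These motifs were then counted in similar peaks. The AP-1 set had near-AP-1 at 11.5% of summits (9.52 to 13.8), TEAD at 7.12% (5.57 to 9.05), RUNX at 10.2% (8.34 to 12.4) and FOX at 8.78% (7.05 to 10.9), and the members with a −log10 q of at least 5 had 8.06%, 8.53%, 9.12% and 8.41%, with intervals that overlapped for each motif. This sets the AP-1 set at all strengths beside the strongest members only. Over all members, the shares of 4.43%, 4.64%, 6.02% and 4.33% were lower, with intervals apart from those of the AP-1 set for each motif. PHF13-only intergenic peaks without AP-1 had summit-to-flank ratios of 1.41 for near-AP-1, 1.52 for TEAD, 1.5 for RUNX and 1.33 for FOX, beside 1.44, 1.48, 1.74 and 1.45 in members. In the EZH2-only distal genic peaks, near-AP-1 was at 2.47% (2.08 to 2.93), TEAD at 2.74% (2.33 to 3.22) and FOX at 2.43% (2.04 to 2.89), with ratios of 0.844, 0.820 and 0.796, and RUNX at 4.36% with a ratio of 1.28. The E-box CAGCTG had ratios of 1.60 in members and 1.56 in the EZH2 set.

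Members were unevenly spread over chromosomes. Per megabase of distal genic sequence there were 6.83 members on chromosome 11, 6.77 on chromosome 20 and 6.31 on chromosome 1, but 0.786 on chromosome 4, 1.22 on chromosome 14, 1.25 on chromosome 13 and 1.70 on chromosome 9. The AP-1 set had 0.287 peaks per megabase on chromosome 4 and 1.02 on chromosome 11, and the EZH2-only distal genic set had 1.19 and 7.21. The local background, which comes from the input, moved with this density: it stood at its lowest value, 4.23 fragments (the mean over the genome), in 76.2% of the members of chromosome 4, 64.4% of those of chromosome 14 and 67.4% of those of chromosome 13, compared with 14.3% on chromosome 11 and 16.9% on chromosome 20. Its part in the spread over chromosomes was not tested, and the copy number of chromosomes was not analysed here.

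**Figure D5:**
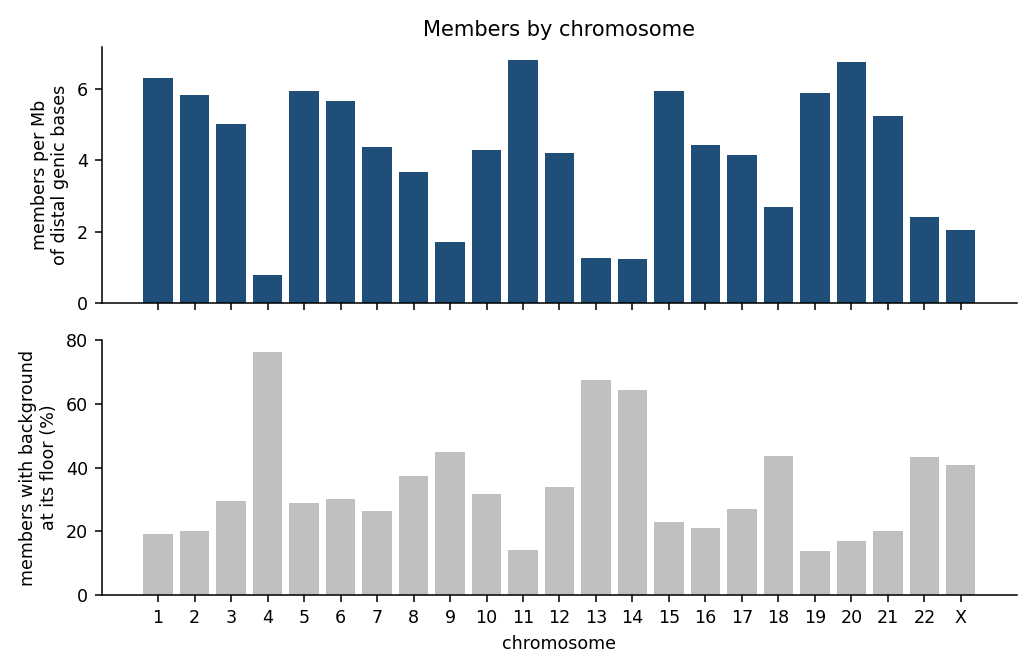
Members per megabase of distal genic bases (top) and share of members whose local background is at its floor (%, bottom), for each autosome and X. Chromosomes 4, 13 and 14 have the fewest members per megabase, 0.786 to 1.25, and the highest shares at the floor, 64.4% to 76.2%.

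Counted by gene, at least 1 member lay in the span of 2307 among 20163 protein-coding genes (11.4%): 1532 had 1, 420 had 2 and 355 had at least 3. These genes were long, with a median span of 145 kb against 22.1 kb for genes without a member. Only 13904 of the 20163 genes hold any base that meets the distance limit of the rule, and the others cannot hold a member. The difference in span is therefore set in part by the rule. The share with a member was 2.57% for genes of up to 50 kb, 30.8% for those of 100 to 200 kb and 68.6% for those over 400 kb, whereas the density per megabase of distal sequence was 5.23, 4.95 and 3.39. Thus the longest genes had the most members but not the highest density.

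The gene with the most members was DLG2, a synaptic scaffold of the membrane-associated guanylate kinase family, with 13. Their −log10 q ran from 1.81 to 6.60, and 8 were single-copy. NLGN1, a neuroligin that joins synapses, had 11 members with a −log10 q from 1.92 to 5.59, and CNTN5, a contactin of the immunoglobulin superfamily, had 11 with a highest value of 4.36. NKAIN2 and NAALADL2 had 10 each, PARD3B, a cell polarity gene, and EYS 9 each, and CARD18, SAMD12 and THSD7A 8 each. Of these 10 genes only THSD7A held a member with a −log10 q over 10, the intron 1 peak of 38.7, and the median of its 8 members was 2.99.

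By density, the first gene was CACNG6, a calcium channel subunit, with 3 members in a span of 21.0 kb, 14.3 per 100 kb. Of these, 1 was single-copy. TNRC18 followed with 5 members and 4.21 per 100 kb. NBPF20, NBPF10 and NBPF8, genes of a repeated family of chromosome 1, had 4, 6 and 3 members, and none of these was single-copy, so their location is uncertain. ENSG00000286185 covers the same 6 members as NBPF10. TRAM2 had 3 and FIGN, a microtubule-severing ATPase, 5 members, all single-copy, with highest −log10 q values of 6.06 and 6.23. FANK1 had 4 members, 2 of them single-copy. FCGBP had 3 members with folds of 1.66 to 2.21, and none was single-copy, so their location is uncertain too.

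Fixed lists of genes of epithelial-to-mesenchymal transition (EMT), adhesion and signalling were then examined. They are described by counts, beside 11.4% of all protein-coding genes with a member and 4.33 members per megabase of their distal sequence. The share depends on gene length, and the lists given here had median spans of 76.1 to 89.6 kb, except the AP-1 subunits (13.4 kb) and the pancreatic factors (11.6 kb). Of all genes of 50 to 100 kb 14.5% had a member, and of those of 100 to 200 kb 30.8%, so a share above 11.4% is not by itself a result about a list. Density per megabase also differed by length, at 5.23 up to 50 kb, 4.59 at 50 to 100 kb and 4.95 at 100 to 200 kb. A density above 4.33 is thus not by itself such a result either. Of the TGF-beta pathway, 9 of 30 genes had a member (7.76 per megabase). LTBP1, which binds latent TGF-beta in the matrix, had 5, with a highest −log10 q of 9.12. TGFBR3, a co-receptor, had 3 members of at most 2.48, TGFBR2, the type II receptor, had 2 at 3.86 and 3.30, and the inhibitory SMAD6 had 1 at 2.57. Among EMT factors, TWIST2 had 2 members (4.96 and 2.23) and TWIST1 had 1 (1.70), and the other 8 genes of the list had none, giving 4.46 per megabase.

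Among focal adhesion adaptors 10 of 38 genes had a member (5.46 per megabase). LPP had 4 members, the highest at 4.50, and TNS3 had 3, the highest at 3.57. PARVB, a parvin, had a member at 11.9, but both of its members were multi-copy. PTK2, the focal adhesion kinase, had 1 at 11.1 in single-copy sequence. Integrins had a member in 6 of 18 genes (6.22 per megabase), none of which reached a −log10 q of 5: ITGA9 had 2, and ITGAV, ITGB6 and ITGA2 had 1 each at 3.33, 1.98 and 1.92. Laminins and collagens had a member in 8 of 25 genes (6.91 per megabase), led by LAMB1, whose 2 single-copy members reached 7.71 and 4.66, while the 3 members of LAMA2 reached at most 2.48.

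In the list of the EGF receptor and RAS-MAPK pathway, 7 of 35 genes had a member (4.21 per megabase). SPRED2, an inhibitor of RAS signalling, had the strongest, with a fold of 4.75, a −log10 q of 14.1 and a FOX word at its summit. The 3 members of ERBB4 were at 8.18, 4.67 and 4.05, and the 2 of EGFR at 4.40 and 2.17. Among YAP and TEAD genes, 6 of 25 had a member (5.35 per megabase). STK4, a Hippo kinase, had a single-copy member with a fold of 6.41 and a −log10 q of 16.7 and a second one at 5.03 with a near-AP-1 word. WWTR1, which encodes the TEAD co-activator TAZ, had 3, the highest at 10.8 with a near-AP-1 word. AMOTL1 had 2 and NF2 had 1 member.

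The remaining lists hold short genes or few members. AP-1 subunits and partners had a member in 3 of 21 genes (9.32 per megabase): BACH2 had 4 (highest 5.32, of which 1 was single-copy), BACH1 had 3 (highest 4.05), and BATF had 1, at 5.32, with a near-AP-1 word. Among pancreatic lineage factors, NR5A2 had 3 members (27.2, 3.22 and 2.95). The list called active-chromatin readers and writers was mixed, with PHF13 itself and also H3K9 methyltransferases such as EHMT1 and SETDB1. A member lay in 5 of its 30 genes (6.59 per megabase), EHMT1 among them. KMT2C, a methyltransferase of enhancer H3K4, had 4 (highest 5.78, in multi-copy sequence), PHF21A had 2, and CHD1 and CREBBP had 1 each.

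Finally, the members were related to other peaks. Another member lay within 50 kb of 35.5% of members (34.2 to 36.8) and of 22.7% (22.2 to 23.3) of the grid positions. A PHF13 peak with an exact AP-1 site, anywhere in the genome, lay within 50 kb of 12.7% of members (11.8 to 13.6) and of 6.44% of grid positions. This share was 20.3% (17.7 to 23.1) for members with a −log10 q of at least 5 and 11.1% (10.2 to 12.1) for the others, and 7.19% (6.52 to 7.93) for the EZH2-only distal genic peaks. For the intergenic peaks without AP-1 it was 12.2% (11.2 to 13.2), beside the 12.7% of members. An EZH2 peak lay within 50 kb of 47.0% of members (45.6 to 48.4), of 34.0% of grid positions and of 56.2% (54.7 to 57.8) of the intergenic peaks without AP-1. The intervals overlapped between members with a −log10 q of at least 5 (46.1%, 42.8 to 49.5) and the others (47.2%, 45.7 to 48.7). The part of the uneven density over chromosomes in these shares was not tested.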

How the data were processed

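According to the submitters' processing notes and the methods, the authors trimmed reads with Trim Galore 0.4.1, aligned them to hg19 with Bowtie2 2.4.1, took out PCR duplicates (Picard) and used MACS2 2.2.7.1 for peaks, each antibody on 1 library against the input. The deposited fold enrichment is a ratio at the summit of the ChIP pileup to the local background. The deposited p-value and q-value are on the −log10 scale, and the deposited score is derived from the −log10 q. The lists were used as deposited: the methods give a stricter q limit for PHF13 than the weakest peak has, and broad calling for EZH2, whose file is in narrow-peak format.

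Positions were compared with GRCh37 and GENCODE 44 lifted to it, 1-based, using Python 3.11.15, numpy 2.4.6, pandas 2.3.3, scipy 1.17.1 and numba 0.67.0. Fragments and background at each summit were solved from fold enrichment and p, within a relative error of 0.0001, for all 19039 PHF13 and 21639 EZH2 peaks. The median of 19 fragments per member summit is the depth behind each value, and total reads are unknown from the lists. A summit was single-copy when the median 24-mer of its 100 bp occurs once in GRCh37. Shares have Wilson intervals, medians exact order-statistic intervals and differences of shares Newcombe intervals. The solving of fragments, the counts of copies, motifs and gaps, and the Wilson and median intervals were tested on simulated data. Genes and peaks were named by rank: the 10 single-copy members with the highest −log10 q and 5 with the highest fold, the 10 genes with the most members and the 10 with the highest density among those with at least 3, and up to 4 genes a list. Some results of the lists and of repeated words are not reported here. Members, lists and motifs were chosen with earlier results of these data known. The 4 motifs followed by strength, the strength classes, the copy-number classes, the 24-base words, the 1-base variants of AP-1 and the ranking of words in strong members were added after values were seen. Alternatives were limits on q and distance, annotation, copy number and window sizes.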

Additional observations from a re-analysis of the deposited data

How the results depend on the processing

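Of 66 alternative settings, 38 left the value inside the interval reported (for the number of members, within 1.5 times) and 28 moved it. Limits on −log10 q of 3 and 5 gave 2616 and 844 members, median folds of 3.69 and 4.22, medians of 15710 and 14756 bp to a TSS, 6.89% and 2.67% of genes with a member, and near-AP-1 summit-to-flank ratios of 1.92 and 2.52. The limit of 5 also gave 6.04% of summits in exons and a median GC content of 43.8%. Single-copy members alone gave 17060 bp and 8.84% of genes. Annotation of protein-coding genes alone gave 72.5% single-copy members, a GC content of 44.8%, 21036 bp and 12.6% of genes. A limit of 1000 bp from a TSS gave 7.4% in exons, a GC content of 44.8%, 10760 bp and 15.8% of genes, and 10000 bp gave 71.8% single-copy, 4.35% in exons, 22944 bp and 8.18% of genes. GC content over 200 bp was 46%. The near-AP-1 ratio was 1.81 in 100-bp windows and had a lower bound above 1 in all 10 of its alternatives. Of 16 alternatives added after the data were seen, for near-AP-1, TEAD, RUNX and FOX in members with a −log10 q of at least 5, all kept a ratio with a lower bound above 1, and 11 stayed inside the interval reported.

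Libraries could not be paired because each antibody has 1 library. Summit and flank windows of the same member were counted as separate windows, and their pairing was not used in the intervals. The values describe 1 PHF13 and 1 EZH2 library. Antibody specificity was not tested. The median member summit rests on 19 fragments, and motif shares in the strongest class rest on 147 peaks.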
